A study of Mus musculus with 8 samples.

Results

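Cadherins and protocadherins of the mouse choroid plexus are described here, as read counts in whole tissue and in sorted epithelial cells. Members were taken by name: every gene of the deposited table whose symbol starts with Cdh and a digit, or with Pcdh, leaving out the endothelial cadherin Cdh5. This gave 93 of 23284 genes. The samples fall into 4 groups of 2 libraries, all from CD1 mouse embryos at stage E18.5. Hindbrain sorted cells and telencephalic sorted cells were isolated by fluorescence-activated cell sorting for a Ttr::RFP reporter, a red fluorescent protein tied to the transthyretin gene that choroid epithelial cells express. Hindbrain whole tissue and telencephalic whole tissue are the undivided choroid plexus of the fourth and the lateral ventricles. Both regions were taken from the same brains, and the sorted and whole preparations carry different sample identifiers in the labels. No group carried a mutation or a treatment in the labels, and the strain is given as CD1 for whole tissue and as ICR (CD1) for sorted cells. The labels do not say whether embryos were pooled.

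Cadherins are calcium-dependent adhesion proteins that join neighbouring cells, and their cytoplasmic tails bind catenins, which connect the junction to actin. Type I classical cadherins such as E-, N- and P-cadherin hold epithelia together, while type II cadherins often mark subsets of cells and boundaries between them. Protocadherins lack the catenin-binding tail. The clustered alpha, beta and gamma genes lie in arrays of variable exons and give cells a combinatorial surface identity, and the non-clustered delta protocadherins take part in adhesion, migration and cell sorting. The choroid plexus is a secretory epithelium over a vascular stroma, so a member can come from epithelial, stromal, endothelial or immune cells. In such bulk samples, fewer cells of a type and less RNA per cell cannot be told apart.

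Several members lie side by side in the genome. In the RefSeq annotation of GRCm38.p6, Cdh6, Cdh9, Cdh10 and Cdh12 are consecutive coding genes on chromosome 15, and Cdh3 and Cdh1 are neighbours on chromosome 8. The promoters of 3 of the chromosome 15 genes are printed because these 3 had the highest hindbrain over telencephalic values in sorted cells, and that of Cdh26 because it was lower in the hindbrain in both preparations. Each runs from 250 bases before to 50 after the annotated start, on the gene's strand, from the RefSeq table of GRCm38.p6, with Cdh6 at chr15:13173626-13173925 (minus strand), Cdh9 at chr15:16728665-16728964 (plus), Cdh10 at chr15:18820079-18820378 (plus) and Cdh26 at chr2:178430265-178430564 (plus). Capitals mark the longest run of letters that any 2 of the 4 promoters share on the same strand.
Cdh6: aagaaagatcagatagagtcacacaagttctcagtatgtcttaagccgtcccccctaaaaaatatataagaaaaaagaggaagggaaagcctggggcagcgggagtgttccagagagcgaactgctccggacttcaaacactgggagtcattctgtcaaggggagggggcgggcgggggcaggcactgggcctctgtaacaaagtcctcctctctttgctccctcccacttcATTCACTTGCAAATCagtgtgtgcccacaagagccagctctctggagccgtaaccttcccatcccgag
Cdh9: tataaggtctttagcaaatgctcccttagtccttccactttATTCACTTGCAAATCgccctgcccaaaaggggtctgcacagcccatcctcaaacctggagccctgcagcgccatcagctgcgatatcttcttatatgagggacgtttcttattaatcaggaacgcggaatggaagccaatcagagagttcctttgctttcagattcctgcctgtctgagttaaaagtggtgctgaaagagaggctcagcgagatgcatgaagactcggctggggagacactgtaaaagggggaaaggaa
Cdh10: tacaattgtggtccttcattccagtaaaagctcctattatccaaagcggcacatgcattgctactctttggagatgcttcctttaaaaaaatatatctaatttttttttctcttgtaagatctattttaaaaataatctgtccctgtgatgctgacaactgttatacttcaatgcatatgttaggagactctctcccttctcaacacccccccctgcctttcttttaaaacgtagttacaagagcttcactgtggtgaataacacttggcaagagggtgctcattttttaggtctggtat
Cdh26: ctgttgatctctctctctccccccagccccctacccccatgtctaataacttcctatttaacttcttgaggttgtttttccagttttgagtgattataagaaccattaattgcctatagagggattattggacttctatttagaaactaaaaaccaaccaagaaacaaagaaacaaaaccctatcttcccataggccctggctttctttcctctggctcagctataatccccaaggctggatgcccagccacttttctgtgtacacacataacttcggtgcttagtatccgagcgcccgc
The run in capitals is 15 bases long and starts 18 bases before the Cdh6 start and 209 bases before the Cdh9 start. No other gene in the promoter table, of 27025, holds it on either strand. The other pairs among the 4 promoters shared runs of at most 8 to 11 bases on either strand, and the run of Cdh6 and Cdh10 was held by 30 genes. GC content was 53% for Cdh6, 48.7% for Cdh9, 37.7% for Cdh10 and 44% for Cdh26, against a median of 52.7% over 32851 promoters. Of the motifs searched on both strands, TGACAG (the Meis core, 19.2% of all promoters) was found once, in the Cdh6 promoter as CTGTCA from 98 bases before the start. TAATTA (a homeodomain core, 5.29% of all promoters) and CACCTG (the E-box of Snail and Zeb factors, 20.2%) were not among the letters of these 4 windows. A shared run or a match describes letters only.

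Library totals ranged from 8849053 to 31613434 counts, of which 13670 to 35340 per library fell on members. Replicates differed by more than sampling noise, most of all the hindbrain sorted libraries, with a chi-square per degree of freedom of 61.1 between them, against 15.8 in telencephalic sorted cells, 12.3 in hindbrain whole tissue and 5.16 in telencephalic whole tissue. All 10 choroid epithelial markers were detected in every library. They summed to 164769 and 216209 CPM (read counts relative to the scaled library size) in hindbrain sorted cells and to 287777 and 263098 CPM in telencephalic sorted cells. In whole tissue they summed to 144477 and 146266 CPM in the hindbrain and to 192339 and 177039 CPM in the telencephalic plexus. Markers of other cells remained in the sorted libraries, and more so in the hindbrain ones. The 10 mesenchymal markers summed to 2332 and 1935 CPM in hindbrain sorted cells and to 1518 and 1687 CPM in telencephalic sorted cells. In whole tissue they summed to 1869 and 2153 CPM in the hindbrain and to 1697 and 2004 CPM in the telencephalic plexus. Hindbrain sorted and whole libraries thus overlapped in these sums. The most abundant genes weigh most in such sums. Gene by gene, 7 of the 10 were lower in sorted than in whole telencephalic samples, with a median log2 fold change of -1.03. Of all genes tested, 12.5% were lower there. In hindbrain samples 2 of the 10 were higher and none lower, with a median of -0.09. The 9 mural markers summed to 293 and 264 CPM in hindbrain sorted cells, against 76.4 and 69.5 CPM in telencephalic sorted cells, and the 10 macrophage markers to 206 and 158 CPM against 33.5 and 57.7 CPM. In whole tissue the mural markers summed to 380 and 460 CPM in the hindbrain and 399 and 420 CPM in the telencephalic plexus. The macrophage markers summed there to 205 and 212 CPM and to 150 and 166 CPM, so hindbrain sorted and whole libraries overlapped in them too. None of the mesenchymal, mural or macrophage markers was at 0 in a sorted library. The 10 endothelial markers summed to 161 and 162 CPM in hindbrain sorted cells and 117 and 126 CPM in telencephalic sorted cells, and among them Cldn5 was at 0 in replicate 1 of both sorted groups. In whole tissue the endothelial markers summed to 645 and 691 CPM in the hindbrain and 610 and 641 CPM in the telencephalic plexus. Between the sorted groups 7 of 10 mesenchymal, 7 of 9 mural and 10 of 10 macrophage markers were higher in the hindbrain. So were 4 of 10 endothelial markers, and 1 endothelial marker was lower. The median log2 fold changes, hindbrain over telencephalic, were 1.11, 1.86, 2.15 and 0.90 in that order. Of the 10 choroid epithelial markers 2 were higher and 2 lower, with a median of -0.21. Of all genes tested, 9.06% were higher and 6.12% lower by the same test.

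**Figure D1:**
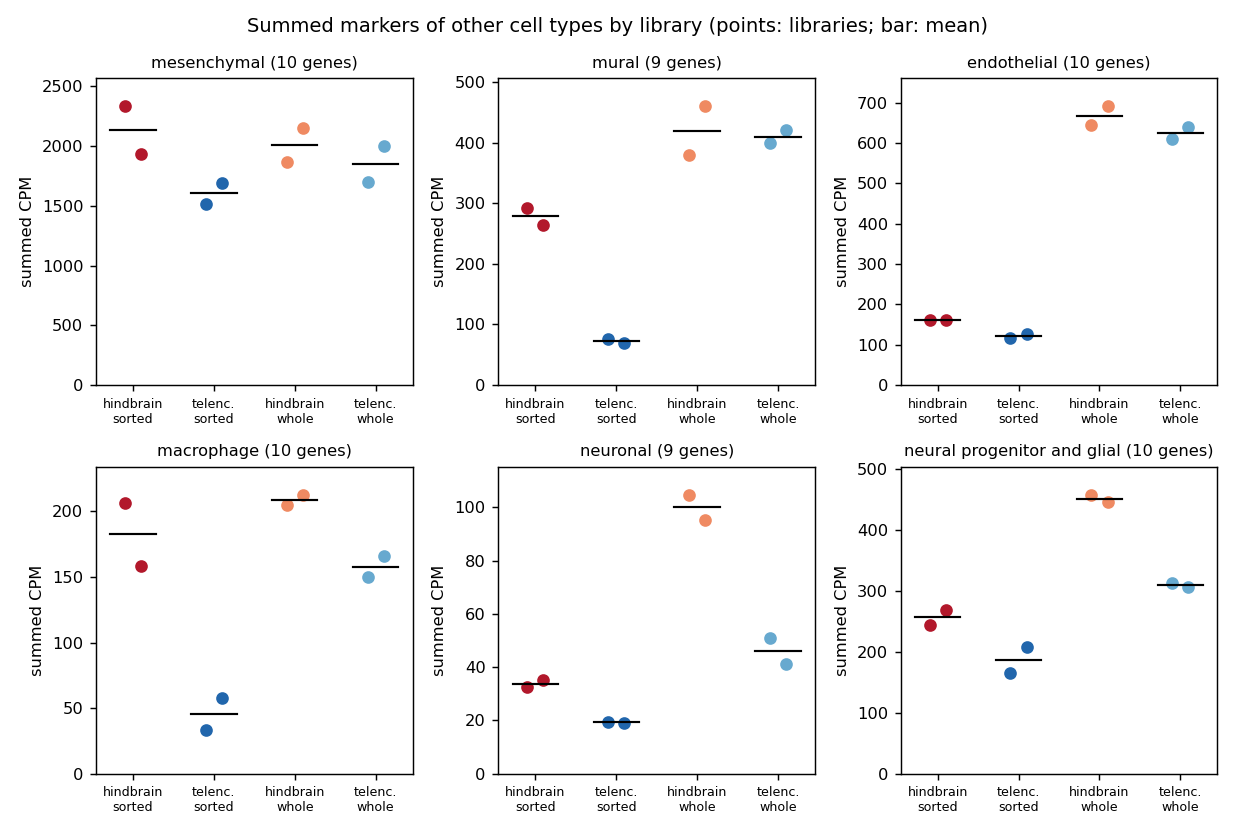
Summed CPM of the marker genes of 6 other cell types in each library (points) with the group mean (bar), on linear axes that start at 0; groups are hindbrain sorted, telencephalic sorted, hindbrain whole and telencephalic whole from left to right. Mural markers reach 293 and 264 CPM in hindbrain sorted cells and 76.4 and 69.5 CPM in telencephalic sorted cells, while the 2 whole-tissue groups lie near each other.

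Each comparison was fitted over all genes with edgeR's quasi-likelihood test, and a gene is said to be called when its Benjamini-Hochberg adjusted p was under 0.05. The p-values measure the spread between these libraries. Of the 93 members 75 passed the filter on low counts. The other 18 were Pcdha1 to Pcdha12 with a second row for Pcdha4, Pcdhac1, Pcdhb1, Pcdh8, Cdh15 and Cdh22, and none of them reached more than 17 counts in a library or 63 over all 8 libraries. In sorted cells 18 of the 75 were called between regions, 8 higher and 10 lower in the hindbrain, which is 24% of them against 15.2% of all genes tested (9.06% higher and 6.12% lower). The median log2 fold change, hindbrain over telencephalic, was -0.21 over the members and 0.00 over all genes tested. In whole tissue 8 were called, 4 in each direction, or 10.7% against 5.79% of all genes (3.34% higher and 2.45% lower), with a median of -0.35 over the members and 0.01 over all genes. Fitted on the 4 whole-tissue libraries alone, 8 members were higher and 8 lower, while the calls over all genes rose from 909 to 1587. With library totals as the scale 5 members were higher and 1 lower in whole tissue, beside 8 higher and 5 lower in sorted cells. Cdh10, Cdh6 and Pcdh9 were higher and Cdh26 and Pcdhac2 lower in both preparations. Single libraries moved these counts, and those over all genes with them. Fewer members and fewer of all genes were called in sorted cells without either telencephalic sorted library. The same held in whole tissue without any 1 of the whole-tissue libraries.

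**Figure D2:**
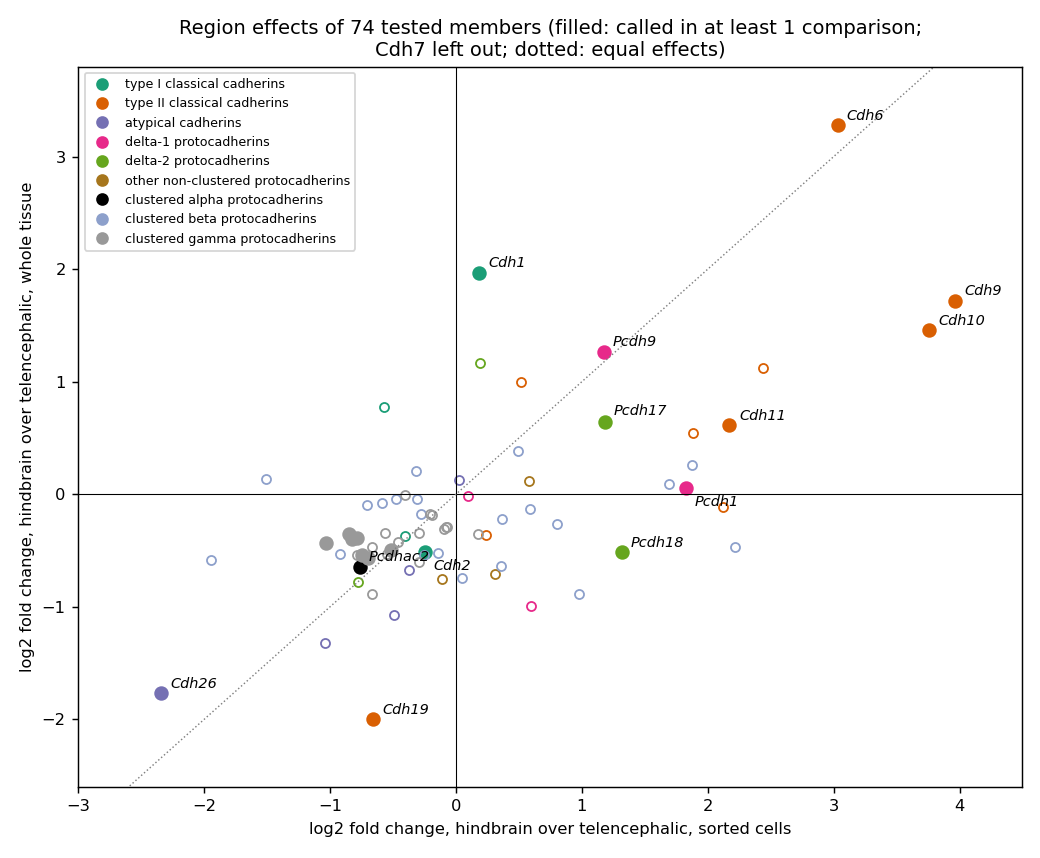
Log2 fold change, hindbrain over telencephalic, in sorted cells (x axis) and in whole tissue (y axis) for 74 of the 75 tested members, coloured by class; filled points were called in at least 1 of the 2 region comparisons and the dotted line marks equal values. Cdh6 and Pcdh9 lie close to the line, Cdh10, Cdh9 and Cdh11 lie to its right, and Cdh1 lies above it.

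Type II cadherins held the widest regional differences. Of the 11 that passed, 4 were higher and 1 lower in hindbrain sorted cells, with a median log2 fold change of 2.12. That is 45.5% called, against 15.2% of all genes tested. The share was 50% for the delta-1 and for the delta-2 protocadherins, at 2 of 4 tested in each. In hindbrain whole tissue 2 type II genes were higher and 1 lower, or 27.3% against 5.79%, with a median of 0.61. Cdh10, a type II cadherin best known from neurons, measured 86.4 and 46.7 CPM in hindbrain sorted cells, against 4.88 and 4.96 CPM in telencephalic sorted cells. In whole tissue it measured 31.6 and 32.0 CPM in the hindbrain, against 10.4 and 13.0 CPM in the telencephalic plexus. Hindbrain and telencephalic values did not overlap in either preparation, and the hindbrain sorted replicates lay far apart, though each was above every other library. The log2 fold change was 3.76 ± 0.26 (SE) in sorted cells (adjusted p = 2.84e-06, edgeR) and 1.46 ± 0.25 in whole tissue (adjusted p = 0.00345, edgeR). Without telencephalic whole replicate 1 the whole-tissue adjusted p was 0.0968 (3.22e-07 to 0.0968 over 16 alternatives).

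Cdh10 also differed between preparations, in opposite directions in the 2 regions. It was higher in sorted than in whole hindbrain samples (log2 fold change 1.06 ± 0.23, adjusted p = 0.00604, edgeR) and lower in sorted than in whole telencephalic samples (-1.24 ± 0.28, adjusted p = 0.00731, edgeR). The telencephalic call was lost without telencephalic whole replicate 2 (adjusted p = 0.0649) or telencephalic sorted replicate 1 (0.0626), within a range of 2.81e-05 to 0.0649 over 15 alternatives. The region effect was larger in sorted cells than in whole tissue by 2.30 ± 0.36 on the log2 scale (adjusted p = 0.0074, edgeR). That difference had an adjusted p of 0.0621 without telencephalic whole replicate 2 and 0.0509 without telencephalic sorted replicate 1 (5.63e-08 to 0.0621 over 15 alternatives). No other member was called higher in sorted cells of one region and lower in those of the other.

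Its neighbours on chromosome 15 were measured at few counts. Cdh9 had 48 and 60 counts in hindbrain sorted cells and 2 and 3 in telencephalic sorted cells, or 1.75 and 2.20 CPM against 0.0756 and 0.186 CPM. In whole tissue Cdh9 had 0.564 and 0.991 CPM in the hindbrain and 0.245 and 0.21 CPM in the telencephalic plexus. The groups did not overlap in either preparation, and the log2 fold change was 3.97 ± 0.76 in sorted cells (adjusted p = 0.00189, edgeR) and 1.72 ± 0.75 in whole tissue (adjusted p = 0.234, edgeR). The sorted value of Cdh9 was 3.36 without telencephalic sorted replicate 1 and 4.60 without replicate 2, and remained called. Cdh6, known in development as kidney cadherin, had 52 and 78 counts in hindbrain sorted cells and 13 and 0 in telencephalic sorted cells. Its levels were 1.89 and 2.86 CPM in hindbrain sorted cells and 0.491 and 0 CPM in telencephalic sorted cells, and 2.74 and 5.05 CPM in hindbrain whole tissue against 0.306 and 0.524 CPM in telencephalic whole tissue. Both hindbrain groups lay above both telencephalic groups without overlap. The log2 fold changes were 3.03 ± 0.77 in sorted cells (adjusted p = 0.0144, edgeR) and 3.28 ± 0.80 in whole tissue (adjusted p = 0.0218, edgeR), and their difference of -0.25 ± 1.12 was not called. The sorted value rests on few telencephalic counts: it was 2.26 without telencephalic sorted replicate 2 (adjusted p = 0.0459), and without replicate 1, which leaves 0 telencephalic counts, the fold cannot be given. The whole-tissue call was lost without hindbrain whole replicate 2 (adjusted p = 0.172), telencephalic whole replicate 1 (0.306) or replicate 2 (0.139), with a range of 0.000139 to 0.306 over 16 alternatives. Cdh12, the last of the consecutive genes, had 15 and 22 counts in hindbrain sorted cells and 1 and 6 in telencephalic sorted cells and was not called in any comparison.

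Cdh11, or OB-cadherin, is a mesenchymal and osteoblast cadherin. It measured 271 and 151 CPM in hindbrain sorted cells, against 49.1 and 45.1 CPM in telencephalic sorted cells. In whole tissue the values were 195 and 261 CPM in the hindbrain and 130 and 168 CPM in the telencephalic plexus. The sorted groups were well apart and the whole-tissue groups did not overlap but lay close together. The log2 fold change was 2.17 ± 0.23 in sorted cells (adjusted p = 6.39e-05, edgeR) and 0.61 ± 0.23 in whole tissue (adjusted p = 0.175, edgeR; 0.0218 with the brain as a block, within 0.00889 to 0.728 over 16 alternatives). Cdh11 was lower in sorted than in whole telencephalic samples, at a log2 fold change of -1.66 (adjusted p = 0.000393, edgeR), and the hindbrain difference of -0.11 was not called. The region effect was larger in sorted cells by 1.55 ± 0.33 (adjusted p = 0.0377, edgeR). This call was lost with DESeq2 (adjusted p = 0.0726) and without hindbrain whole replicate 1 (0.131), telencephalic whole replicates 1 and 2 (0.0825 and 0.24) or telencephalic sorted replicates 1 and 2 (0.141 and 0.157), within 6.41e-06 to 0.24 over 15 alternatives. Mesenchymal, mural and macrophage markers were also higher in hindbrain than in telencephalic sorted cells. Their CPM sums were 1935 to 2332, 264 to 293 and 158 to 206 against 1518 to 1687, 69.5 to 76.4 and 33.5 to 57.7. Their median log2 fold changes, hindbrain over telencephalic, were 1.11, 1.86 and 2.15. Their part in the Cdh10 and Cdh11 results was not tested.

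The remaining type II genes were low. Cdh19, expressed by glial precursors and Schwann cells, had 0.846 and 0.472 CPM in hindbrain whole tissue, against 2.63 and 2.72 CPM in telencephalic whole tissue. Hindbrain sorted cells had 0.691 and 0.44 CPM of it, against 0.869 and 0.93 CPM in telencephalic sorted cells. It was lower in hindbrain whole tissue (log2 fold change -2.0 ± 0.52, adjusted p = 0.0426, edgeR), while the sorted difference of -0.66 was not called. That call was lost under library totals (adjusted p = 0.0576) and when any whole-tissue or telencephalic sorted library was left out (0.0663 to 0.391). Cdh19 was also lower in sorted than in whole telencephalic samples (-1.57, adjusted p = 0.0454, edgeR), which was lost with DESeq2 (0.0701) and without any whole-tissue or telencephalic sorted library (0.0671 to 0.209). Its neighbour on chromosome 1, Cdh7, had 0 counts in both hindbrain sorted libraries and 6 and 7 counts in the telencephalic ones. In whole tissue its hindbrain over telencephalic log2 fold change of -2.06, the lowest of the type II genes, was not called. With 3 counts over the group taken as the floor, Cdh7 in hindbrain sorted cells was at 0.179 of its telencephalic level (adjusted p = 0.033, edgeR). Leaving out any of the 8 libraries ended the call. Against hindbrain whole tissue, where Cdh7 had 8 and 3 counts, the ratio by that floor was 0.229 (adjusted p = 0.039, edgeR), a call also lost without any 1 library. These ratios are not upper limits, since they leave out counting error in the compared groups. Cdh24 measured 5.60 and 5.83 CPM in hindbrain sorted cells, against 2.9 and 1.7 CPM in hindbrain whole tissue, and was higher in the sorted cells (1.30 ± 0.31, adjusted p = 0.0119, edgeR; 0.125 without hindbrain whole replicate 2, within 0.00261 to 0.125 over 15 alternatives). Cdh8, Cdh18 and Cdh20 were not called in any comparison.

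**Figure D3:**
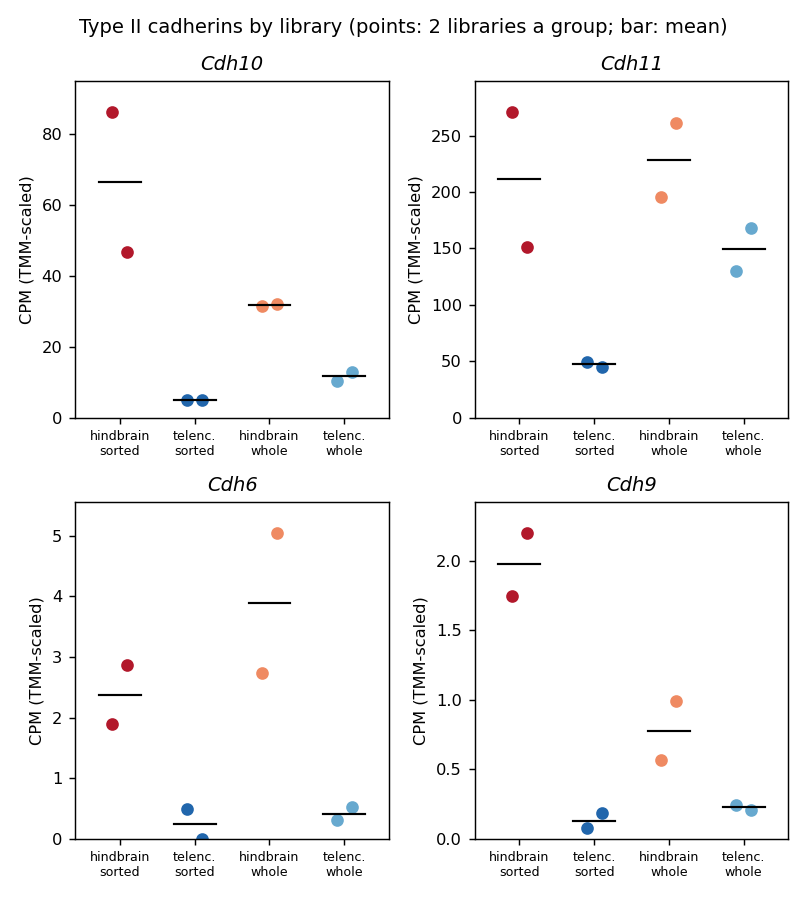
CPM of 4 type II cadherins in each library (points, 2 a group) with the group mean (bar), on linear axes that start at 0; groups are hindbrain sorted, telencephalic sorted, hindbrain whole and telencephalic whole from left to right. Cdh10 and Cdh11 are lowest in telencephalic sorted cells, at 4.88 and 4.96 CPM and at 49.1 and 45.1 CPM, and for each of the 4 genes the hindbrain libraries lie above the telencephalic ones of the same preparation.

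Of 4 type I cadherins tested, 1 was higher and 1 lower in hindbrain whole tissue, or 50% called against 5.79% of all genes tested. None was called between regions in sorted cells, against 15.2% of all genes. Cdh3, or P-cadherin, measured 186 and 198 CPM in hindbrain sorted cells, against 259 and 250 CPM in telencephalic sorted cells, and 188 and 131 CPM in hindbrain whole tissue, against 215 and 197 CPM in telencephalic whole tissue. The hindbrain libraries were lower than the telencephalic ones of their preparation, without overlap, but neither difference was called (log2 fold change -0.41 ± 0.15, adjusted p = 0.0862, and -0.37 ± 0.15, adjusted p = 0.214, edgeR). With the brain as a block the sorted difference had an adjusted p of 0.0342, within 0.0307 to 0.4 over 16 alternatives. Cdh2, or N-cadherin, the classical cadherin of neural epithelia, measured 52.6 and 46.5 CPM in hindbrain sorted cells, against 59.0 and 58.7 CPM in telencephalic sorted cells, and 61.7 and 64.7 CPM in hindbrain whole tissue, against 84.9 and 96.1 CPM in telencephalic whole tissue. It was lower in hindbrain whole tissue (-0.52 ± 0.12, adjusted p = 0.0233, edgeR) and the sorted difference of -0.25 ± 0.12 was not called (adjusted p = 0.2, edgeR). The whole-tissue call was lost under library totals (adjusted p = 0.117) and without hindbrain whole replicate 1 (0.144) or 2 (0.102) or telencephalic whole replicate 1 (0.0893) or 2 (0.265), within 0.00536 to 0.265 over 16 alternatives. Cdh2 was lower in sorted than in whole telencephalic samples (-0.62, adjusted p = 0.0034, edgeR; 0.0519 without telencephalic whole replicate 2, the highest of 15 alternatives from 8.21e-05).

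Cdh1 and Cdh4 were lower in hindbrain sorted cells than in the whole hindbrain plexus. Cdh1, or E-cadherin, the adhesion protein of most epithelia outside the nervous system, measured 2.22 and 1.32 CPM in hindbrain sorted cells and 2.23 and 0.744 CPM in telencephalic sorted cells, against 11.8 and 8.73 CPM in hindbrain whole tissue and 2.87 and 2.31 CPM in telencephalic whole tissue. Both hindbrain whole libraries lay above every other library. The region effect was 1.97 ± 0.42 in whole tissue (adjusted p = 0.0149, edgeR) and 0.18 ± 0.45 in sorted cells (adjusted p = 0.843, edgeR), but the difference between them, -1.78 ± 0.62, was not called (adjusted p = 0.308, edgeR). The whole-tissue call was lost without hindbrain whole replicate 1 (adjusted p = 0.118) or telencephalic whole replicate 1 (0.14) or 2 (0.176), within 0.00011 to 0.176 over 16 alternatives. Cdh1 was lower in sorted than in whole hindbrain samples, at a log2 fold change of -2.53 ± 0.41 (adjusted p = 0.00122, edgeR), which held in every alternative run. Cdh4, or R-cadherin, measured 1.75 and 2.82 CPM in hindbrain sorted cells, against 9.47 and 7.60 CPM in hindbrain whole tissue, and was lower in the sorted cells (-1.90 ± 0.31, adjusted p = 0.00133, edgeR) in every alternative run. The 9 neuronal markers summed to 32.4 and 35.2 CPM in hindbrain sorted cells and 105 and 95.3 CPM in hindbrain whole tissue, and their part was not tested.

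Among 5 atypical cadherins 1 was called. Between regions that is 20%, against 15.2% of all genes tested in sorted cells and 5.79% in whole tissue. Cdh26, an atypical cadherin known from epithelia in allergic inflammation in humans, measured 1.45 and 1.32 CPM in hindbrain sorted cells, against 6.46 and 7.69 CPM in telencephalic sorted cells. In whole tissue it measured 3.59 and 3.49 CPM in the hindbrain and 11.6 and 12.6 CPM in the telencephalic plexus. All 4 hindbrain libraries lay below all 4 telencephalic libraries. It was lower in the hindbrain by -2.34 ± 0.25 in sorted cells (adjusted p = 5.66e-05, edgeR) and -1.77 ± 0.24 in whole tissue (adjusted p = 0.000669, edgeR), in each of the 16 alternatives of both comparisons, and the difference of -0.57 ± 0.35 between them was not called. Cdh26 was also lower in sorted than in whole samples, in the hindbrain (-1.35, adjusted p = 0.00317, edgeR) and in telencephalic samples (-0.78, adjusted p = 0.0305, edgeR). The telencephalic call was lost without telencephalic whole replicates 1 and 2 (adjusted p = 0.136 and 0.175) or telencephalic sorted replicates 1 and 2 (0.177 and 0.0614), within 0.00451 to 0.177 over 15 alternatives. Cdh13, which is anchored to the membrane by a lipid, Cdh16, Cdh17 and the hair cell cadherin Cdh23 were not called, at log2 fold changes of 0.03 to -1.04 in sorted cells and 0.12 to -1.33 in whole tissue.

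The delta-1 protocadherins included a gene with the same regional difference in both preparations. Pcdh9 measured 97.6 and 79.8 CPM in hindbrain sorted cells, against 40.1 and 38.5 CPM in telencephalic sorted cells, and 58.5 and 54.7 CPM in hindbrain whole tissue, against 19.4 and 28.3 CPM in telencephalic whole tissue. The hindbrain libraries lay above the telencephalic libraries within and across preparations. The log2 fold change was 1.17 ± 0.16 in sorted cells (adjusted p = 0.000404, edgeR) and 1.26 ± 0.17 in whole tissue (adjusted p = 0.000701, edgeR), in each of 16 alternatives, and the difference of -0.09 ± 0.24 was not called. Pcdh9 was also higher in sorted than in whole samples, by 0.65 in the hindbrain (adjusted p = 0.0134, edgeR) and 0.74 in the telencephalic plexus (adjusted p = 0.0094, edgeR), and was the only member higher in both sorted groups. These calls were lost under library totals (adjusted p = 0.0878 and 0.128), the hindbrain one also without hindbrain whole replicate 2 (0.0849) or hindbrain sorted replicate 1 (0.0567) and the telencephalic one without telencephalic whole replicate 1 (0.147) or telencephalic sorted replicate 1 (0.0652), with ranges of 0.001 to 0.0878 and 0.000385 to 0.147 over 15 alternatives. Pcdh7, known as NF-protocadherin in frogs, measured 165 and 152 CPM in hindbrain sorted cells, 142 and 154 CPM in telencephalic sorted cells, 141 and 130 CPM in hindbrain whole tissue and 139 and 136 CPM in telencephalic whole tissue. It was not called in any comparison, with region effects of 0.10 ± 0.11 and -0.02 ± 0.11. Pcdh11x was not called either.

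Pcdh1 and the delta-2 gene Pcdh18 were higher in hindbrain sorted cells than in telencephalic sorted cells. Pcdh1 was lower in sorted than in whole samples of both regions, and Pcdh18 in telencephalic samples. Pcdh1, an adhesion protein of airway epithelium and endothelium, measured 11.3 and 4.48 CPM in hindbrain sorted cells, 2.53 and 1.8 CPM in telencephalic sorted cells, 30.6 and 36.9 CPM in hindbrain whole tissue and 28.5 and 36.5 CPM in telencephalic whole tissue. The sorted groups did not overlap, the whole-tissue groups did, and every sorted library was below every whole-tissue library. Its region effect was 1.83 ± 0.38 in sorted cells (adjusted p = 0.00576, edgeR; 0.0551 without telencephalic sorted replicate 2, the highest of 16 alternatives from 1.02e-06) and 0.06 ± 0.30 in whole tissue. The sorted value was 1.005 without hindbrain sorted replicate 1 (adjusted p = 0.0259). The difference of 1.77 ± 0.49 was not called (adjusted p = 0.138, edgeR) and had an adjusted p of 0.00387 with the brain as a block. Sorted over whole, the log2 fold change of Pcdh1 was -2.10 in hindbrain samples (adjusted p = 0.000713, edgeR) and -3.87 in telencephalic samples (adjusted p = 1.71e-05, edgeR), and the hindbrain value was -2.91 without hindbrain sorted replicate 1. Pcdh18, which recruits the adaptor Dab1 in mouse cells, measured 65.9 and 32.5 CPM in hindbrain sorted cells, against 20.4 and 19 CPM in telencephalic sorted cells, and 54.0 and 73.8 CPM in hindbrain whole tissue, against 80.1 and 103 CPM in telencephalic whole tissue. Hindbrain libraries were thus above the telencephalic ones in sorted cells and below them in whole tissue, and the sorted and whole hindbrain libraries overlapped. Sorted over whole, its log2 fold change was -2.21 in telencephalic samples (adjusted p = 0.000135, edgeR) and -0.38 in the hindbrain (adjusted p = 0.327, edgeR).

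The region effect of Pcdh18 was 1.32 ± 0.27 in sorted cells (adjusted p = 0.0058, edgeR) and -0.52 ± 0.26 in whole tissue (adjusted p = 0.364, edgeR), and they differed by 1.83 ± 0.37 (adjusted p = 0.0328, edgeR). The sorted call no longer passed without telencephalic sorted replicate 1 (adjusted p = 0.0542) or 2 (0.0521), within 3.8e-07 to 0.0542 over 16 alternatives. Without hindbrain sorted replicate 1 the sorted value was 0.72 (adjusted p = 0.029) and the difference 1.24 (adjusted p = 0.0263). The difference was lost with DESeq2 (adjusted p = 0.0518) and without hindbrain whole replicate 1 (0.113), telencephalic whole replicates 1 and 2 (0.0827 and 0.204) or telencephalic sorted replicates 1 and 2 (0.139 and 0.135), within 3.08e-06 to 0.204 over 15 alternatives. Pcdh18, Cdh10 and Cdh11 were the 3 members called for this difference, all in the positive direction, which is 4% of the 75 against 1.34% of all genes tested (1.1% positive and 0.242% negative). That count was 1 with DESeq2, 1 without hindbrain whole replicate 1, telencephalic whole replicate 1 or telencephalic sorted replicate 2, and 0 without telencephalic whole replicate 2 or telencephalic sorted replicate 1. Without those libraries fewer of all genes were called as well, while DESeq2 called 327 of all genes against 211. Unadjusted, 8 of the 75 members had an edgeR p under 0.05, or 10.7% against 9.43% of all genes tested. Mural markers were called for the same difference in 5 of 9 cases and mesenchymal and macrophage markers in 2 of 10 each, all positive. So were 2 of 10 endothelial markers, while 1 of 9 neuronal and 1 of 9 neural progenitor and glial markers were called in the negative direction. The part of these cells in the 3 results was not tested.

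**Figure D4:**
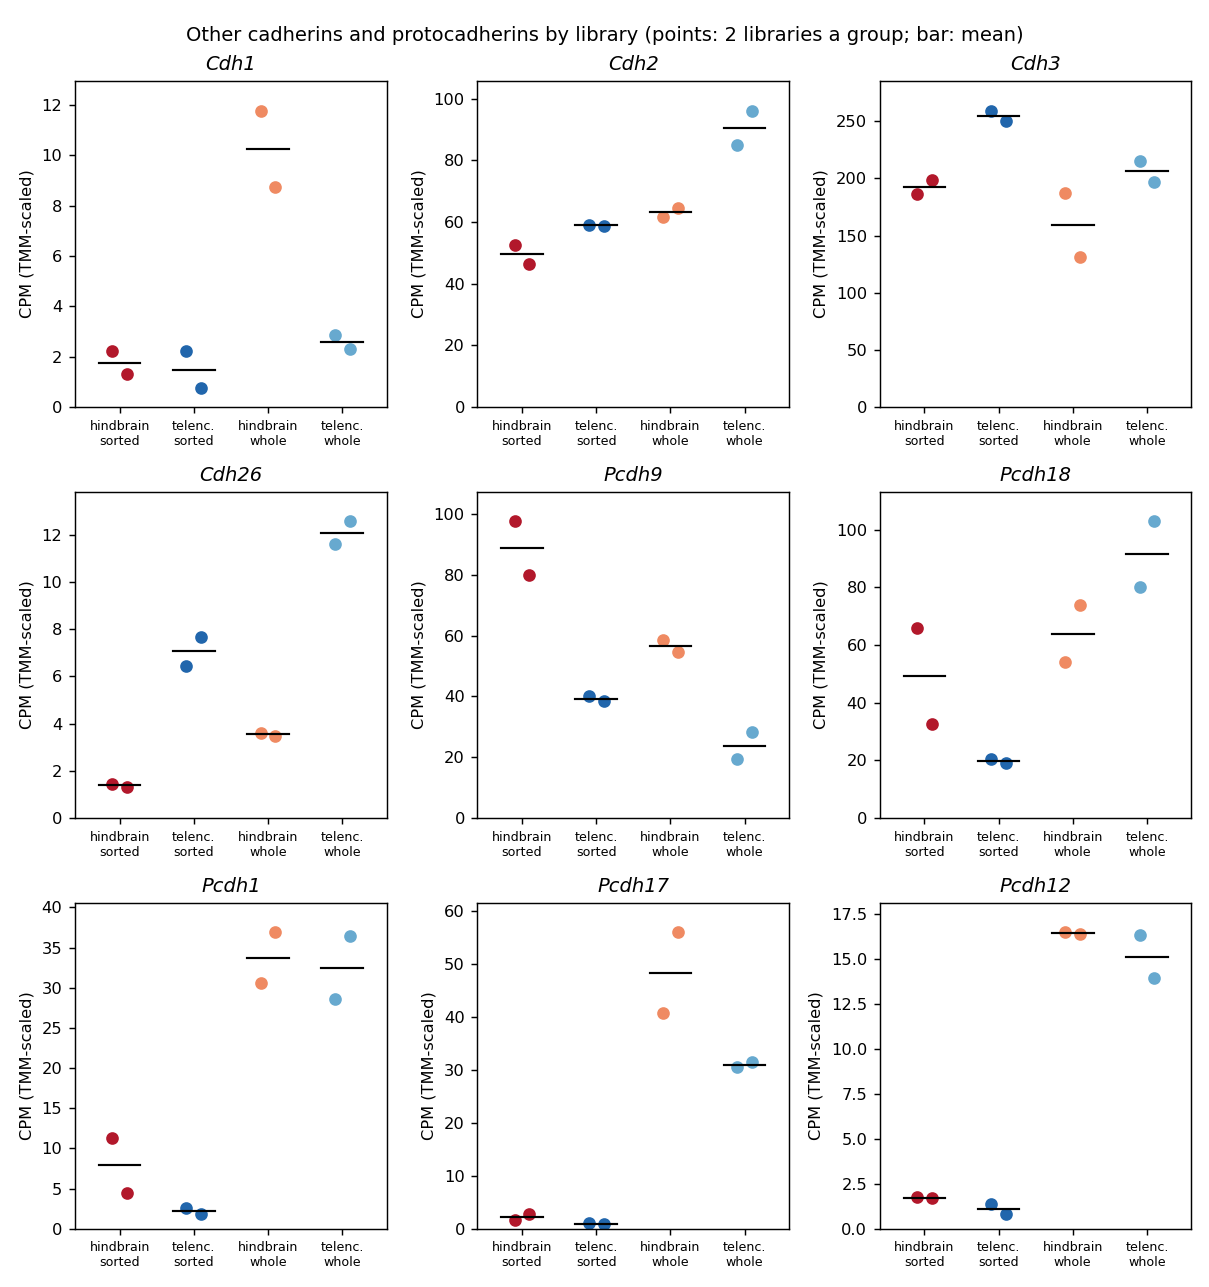
CPM of 9 other cadherins and protocadherins in each library (points, 2 a group) with the group mean (bar), on linear axes that start at 0; groups are hindbrain sorted, telencephalic sorted, hindbrain whole and telencephalic whole from left to right. Cdh26 is lower and Pcdh9 higher in the hindbrain in both preparations, Pcdh17 and Pcdh12 are at most 2.75 CPM in the sorted libraries, and Cdh1 stands out in hindbrain whole tissue at 11.8 and 8.73 CPM.

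Most members called between preparations were lower in sorted cells. In hindbrain samples 22 of 75 members were called between preparations, 3 higher and 19 lower in sorted cells, or 29.3% against 22.1% of all genes tested (10.2% higher and 11.9% lower), with a median log2 fold change, sorted over whole, of -0.50 over the members and 0.01 over all genes. In telencephalic samples 24 were called, 2 higher and 22 lower, or 32% against 22.4% of all genes (9.88% higher and 12.5% lower), with medians of -0.78 and 0.01. The telencephalic count was lower without telencephalic whole replicate 2 or telencephalic sorted replicate 1, as was the count over all genes. With library totals as the scale the members called were 2 higher and 23 lower in the hindbrain and 1 higher and 32 lower in telencephalic samples, and the median of all genes moved by -0.20 and -0.32. Preparation, brain and strain label changed together, so they cannot be told apart.

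Pcdh17 and Pcdh12 were much lower in sorted than in whole samples of both regions. Pcdh17, a delta-2 protocadherin of neurons and vessels, measured 1.60 and 2.75 CPM in hindbrain sorted cells, against 40.7 and 56.0 CPM in hindbrain whole tissue, and 1.06 and 0.806 CPM in telencephalic sorted cells, against 30.4 and 31.5 CPM in telencephalic whole tissue. Pcdh12, an endothelial protocadherin first described as VE-cadherin-2, measured 1.75 and 1.69 CPM in hindbrain sorted cells, against 16.5 and 16.4 CPM in hindbrain whole tissue, and 1.40 and 0.806 CPM in telencephalic sorted cells, against 16.3 and 13.9 CPM in telencephalic whole tissue. For both genes every sorted library was far below every whole-tissue library. The log2 fold changes of Pcdh17 were -4.47 ± 0.24 in the hindbrain (adjusted p = 1.84e-07, edgeR) and -5.01 ± 0.32 in telencephalic samples (adjusted p = 1.92e-07, edgeR). Those of Pcdh12 were -3.25 ± 0.24 (adjusted p = 2.93e-06, edgeR) and -3.72 ± 0.27 (adjusted p = 1.48e-06, edgeR). All 10 endothelial markers were lower in sorted cells of both regions, with medians of -3.50 and -4.31, and their part was not tested. Cdh5, VE-cadherin itself, measured 42.8 and 36.4 CPM in hindbrain sorted cells against 210 and 225 CPM in hindbrain whole tissue, and 9.90 and 8.62 CPM in telencephalic sorted cells against 149 and 165 CPM in telencephalic whole tissue.

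Pcdh17 was also higher in hindbrain than in telencephalic sorted cells (1.18 ± 0.34, adjusted p = 0.0302, edgeR), at levels of at most 2.75 CPM. That call was lost when only the 4 sorted libraries were fitted (adjusted p = 0.213) and without telencephalic whole replicate 1 (0.0524) or 2 (0.0531), hindbrain sorted replicate 2 (0.165) or telencephalic sorted replicate 1 (0.12) or 2 (0.145), within 0.0035 to 0.213 over 16 alternatives. Pcdh19, the X-linked delta-2 gene of a human epilepsy, was lower in sorted cells by -1.13 in the hindbrain (adjusted p = 0.0192, edgeR) and -1.14 in telencephalic samples (adjusted p = 0.0181, edgeR). Its region effect in sorted cells, -0.78, had an adjusted p of 0.115 and of 0.0421 with the brain as a block. The hindbrain sorting call was lost without hindbrain whole replicate 2 (adjusted p = 0.115) or hindbrain sorted replicate 2 (0.067), and the telencephalic one without telencephalic whole replicate 2 (0.227) or telencephalic sorted replicate 2 (0.115), within 0.00236 to 0.115 and 0.00206 to 0.227 over 15 alternatives. Pcdh10, or OL-protocadherin, had 1.42 and 6.05 CPM in hindbrain sorted cells, 1.51 and 5.27 CPM in telencephalic sorted cells, 8.71 and 10.2 CPM in hindbrain whole tissue and 3.36 and 5.24 CPM in telencephalic whole tissue. It was not called, although the hindbrain whole libraries were the highest, and the whole-tissue difference of 1.16 ± 0.59 had an adjusted p of 0.376 and of 0.013 with the brain as a block. Pcdh20 was lower in telencephalic sorted than in telencephalic whole samples (-2.13, adjusted p = 0.0186, edgeR; 0.099 to 0.145 without telencephalic whole replicate 1 or 2 or telencephalic sorted replicate 1), and the hair cell protocadherin Pcdh15 was not called.

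Among clustered protocadherins, which make up most of the 61 members on chromosome 18, the gamma genes had hindbrain over telencephalic values below 0 nearly throughout. In sorted cells 7 of 22 were lower in the hindbrain and none higher, with 21 of 22 log2 fold changes below 0 and a median of -0.53. That is 31.8% called, against 15.2% of all genes tested (6.12% lower). In whole tissue edgeR called none, DESeq2 called 1 and 6 had an unadjusted p under 0.05, with 22 of 22 below 0 and a median of -0.39. Of all genes tested, edgeR called 5.79% in whole tissue, and 16.5% had an unadjusted p under 0.05. The medians over all genes tested were 0.00 and 0.01. With library totals as the scale, which moved the median of all genes by 0.20 in sorted cells, 17 of 22 were below 0 and 2 called in sorted cells, and 21 of 22 were below 0 in whole tissue, as with RLE scaling. The variable exons of these genes are joined to shared constant exons and the genes are near copies of each other, so the count of any single one is uncertain, and the genes are not independent of each other. Pcdhgc3, a C-type gamma gene, measured 109 and 111 CPM in hindbrain sorted cells, against 165 and 149 CPM in telencephalic sorted cells, and 153 and 115 CPM in hindbrain whole tissue, against 205 and 172 CPM in telencephalic whole tissue. The groups did not overlap, and the log2 fold changes were -0.52 ± 0.14 (adjusted p = 0.0294, edgeR) and -0.50 ± 0.14 (adjusted p = 0.0672, edgeR; 0.0143 with the brain as a block). The sorted call of Pcdhgc3 was lost in 4 of 16 alternatives, namely under library totals (adjusted p = 0.181) and without hindbrain sorted replicate 1 (0.0773), telencephalic sorted replicate 1 (0.208) or replicate 2 (0.0689).

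Pcdhgb7 was the 1 gamma gene called higher in sorted than in whole telencephalic samples. It measured 17.9 and 14.9 CPM in hindbrain sorted cells, against 29.9 and 28.2 CPM in telencephalic sorted cells, and 13.3 and 9.49 CPM in hindbrain whole tissue, against 14.7 and 15.3 CPM in telencephalic whole tissue. Telencephalic sorted cells stood above the other groups. The region effect in sorted cells was -0.83 ± 0.18 (adjusted p = 0.00835, edgeR; 0.0737 without telencephalic sorted replicate 1, the highest of 16 alternatives from 0.00097) and the sorted over whole value in telencephalic samples was 0.96 ± 0.19 (adjusted p = 0.00344, edgeR). Pcdhga4 (-1.03), Pcdhgb6 (-0.85), Pcdhgb2 (-0.78), Pcdhgc4 (-0.75) and Pcdhga3 (-0.70) were the other gamma genes lower in hindbrain sorted cells, with adjusted p of 0.0101 to 0.0388. All 5 calls no longer passed without telencephalic sorted replicate 1, at adjusted p of 0.0502 for Pcdhgc4, 0.0575 for Pcdhga4, 0.0782 for Pcdhga3, 0.162 for Pcdhgb6 and 0.284 for Pcdhgb2. The calls of Pcdhga3, Pcdhgb2 and Pcdhgc4 were lost in 7, 9 and 7 of 16 alternatives. Pcdhgb5 measured 7.02 and 4.22 CPM in hindbrain sorted cells, against 15.7 and 14.5 CPM in hindbrain whole tissue, and 6.62 and 5.33 CPM in telencephalic sorted cells, against 16.2 and 21.4 CPM in telencephalic whole tissue. It was lower in sorted cells of both regions (-1.42, adjusted p = 0.0017, and -1.63, adjusted p = 0.000691, edgeR), as were Pcdhgb1, Pcdhgb6 and Pcdhga3, and Pcdhga10 was lower in those of the hindbrain. The telencephalic calls of Pcdhgb1, Pcdhgb6 and Pcdhga3 no longer passed without telencephalic sorted replicate 1 (adjusted p = 0.0728, 0.066 and 0.0927) or telencephalic whole replicate 2 (0.0867, 0.0633 and 0.065). Without telencephalic whole replicate 1 the telencephalic adjusted p was 0.364 for Pcdhgb6 and 0.067 for Pcdhga3. Pcdhga5, Pcdhga7, Pcdhga8 and Pcdhga9, the most abundant gamma genes with no call, had region values of -0.07 to -0.56 in sorted cells and -0.29 to -0.42 in whole tissue.

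Pcdhac2, a C-type alpha gene and the only one of 15 alpha rows to pass the filter, measured 10 and 12.4 CPM in hindbrain sorted cells, against 18.6 and 19.5 CPM in telencephalic sorted cells, and 12 and 13.4 CPM in hindbrain whole tissue, against 20.7 and 18.8 CPM in telencephalic whole tissue. All hindbrain libraries lay below all telencephalic ones. The log2 fold change was -0.76 ± 0.17 in sorted cells (adjusted p = 0.00944, edgeR) and -0.64 ± 0.17 in whole tissue (adjusted p = 0.0489, edgeR). The sorted call no longer passed without telencephalic sorted replicate 1 (adjusted p = 0.0528) or 2 (0.0551), within 0.00334 to 0.0551 over 16 alternatives. The whole-tissue call was lost under 3 other scalings (0.0505 to 0.0819) and without any whole-tissue library or either telencephalic sorted library (0.0757 to 0.39).

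For the clustered beta protocadherins, neither edgeR nor DESeq2 called any of the 21 tested between regions. Unadjusted, 2 had an edgeR p under 0.05 in sorted cells and 0 in whole tissue, against 28.3% and 16.5% of all genes tested. In sorted cells 10 of 21 were above 0, and in whole tissue 5 of 21. In sorted against whole samples 6 were lower in the hindbrain, or 28.6% of the 21 against 22.1% of all genes called, and 7 in telencephalic samples, or 33.3% against 22.4%. None was higher, with 20 of 21 below 0 in each and medians of -1.61 and -1.57. Pcdhb16 measured 1.64 and 1.94 CPM in hindbrain sorted cells, against 5.32 and 7.22 CPM in hindbrain whole tissue, and 1.85 and 2.54 CPM in telencephalic sorted cells, against 6.30 and 7.96 CPM in telencephalic whole tissue. Every sorted library was below every whole-tissue library. Its log2 fold changes were -1.80 (adjusted p = 0.00153, edgeR) in the hindbrain and -1.70 (adjusted p = 0.00237, edgeR) in telencephalic samples, and those of Pcdhb17 were -1.89 (adjusted p = 0.00165, edgeR) and -1.62 (adjusted p = 0.00449, edgeR). Both genes kept their calls in each of 15 alternatives a region. Pcdhb3 was the third beta gene lower in both regions, while Pcdhb7, Pcdhb11 and Pcdhb19 were lower in the hindbrain and Pcdhb5, Pcdhb6, Pcdhb15 and Pcdhb18 in telencephalic samples, and the difference between these effects was not called for any beta gene. Pcdhb6 had 1 and 3 counts in telencephalic sorted cells against 23 and 26 counts in telencephalic whole tissue, and its log2 fold change of -4.29 (adjusted p = 0.00218, edgeR) was -3.40 without telencephalic sorted replicate 1 and -5.54 without replicate 2. In the hindbrain, the call of Pcdhb11 was lost with DESeq2 (adjusted p = 0.0948), in the fit of 4 libraries (0.0696), with no filter (0.0583) and without any 1 of the 8 libraries (0.0518 to 0.188). Without hindbrain whole replicate 1 the hindbrain calls of Pcdhb3 (0.0834), Pcdhb7 (0.0541) and Pcdhb19 (0.0984) were lost, and without replicate 2 those of Pcdhb3 (0.119) and Pcdhb7 (0.0879), and that of Pcdhb3 also in the fit of 4 libraries (0.0634). In telencephalic samples the calls of Pcdhb3, Pcdhb5, Pcdhb15 and Pcdhb18 were lost without telencephalic whole replicate 2 (0.0774, 0.148, 0.174 and 0.115) or telencephalic sorted replicate 1 (0.0784, 0.192, 0.0751 and 0.0868). Without telencephalic whole replicate 1 those of Pcdhb3 (0.055), Pcdhb5 (0.147) and Pcdhb18 (0.0816) were lost, without telencephalic sorted replicate 2 those of Pcdhb5 (0.0806), Pcdhb15 (0.0998) and Pcdhb18 (0.0997), and that of Pcdhb5 also without either hindbrain whole library (0.0642 and 0.0646). The neuronal markers summed to 32.4 and 35.2 CPM in hindbrain sorted cells and 19.4 and 19.2 CPM in telencephalic sorted cells, against 105 and 95.3 CPM and 50.9 and 41.3 CPM in whole tissue of the same regions, and their part was not tested.

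**Figure D5:**
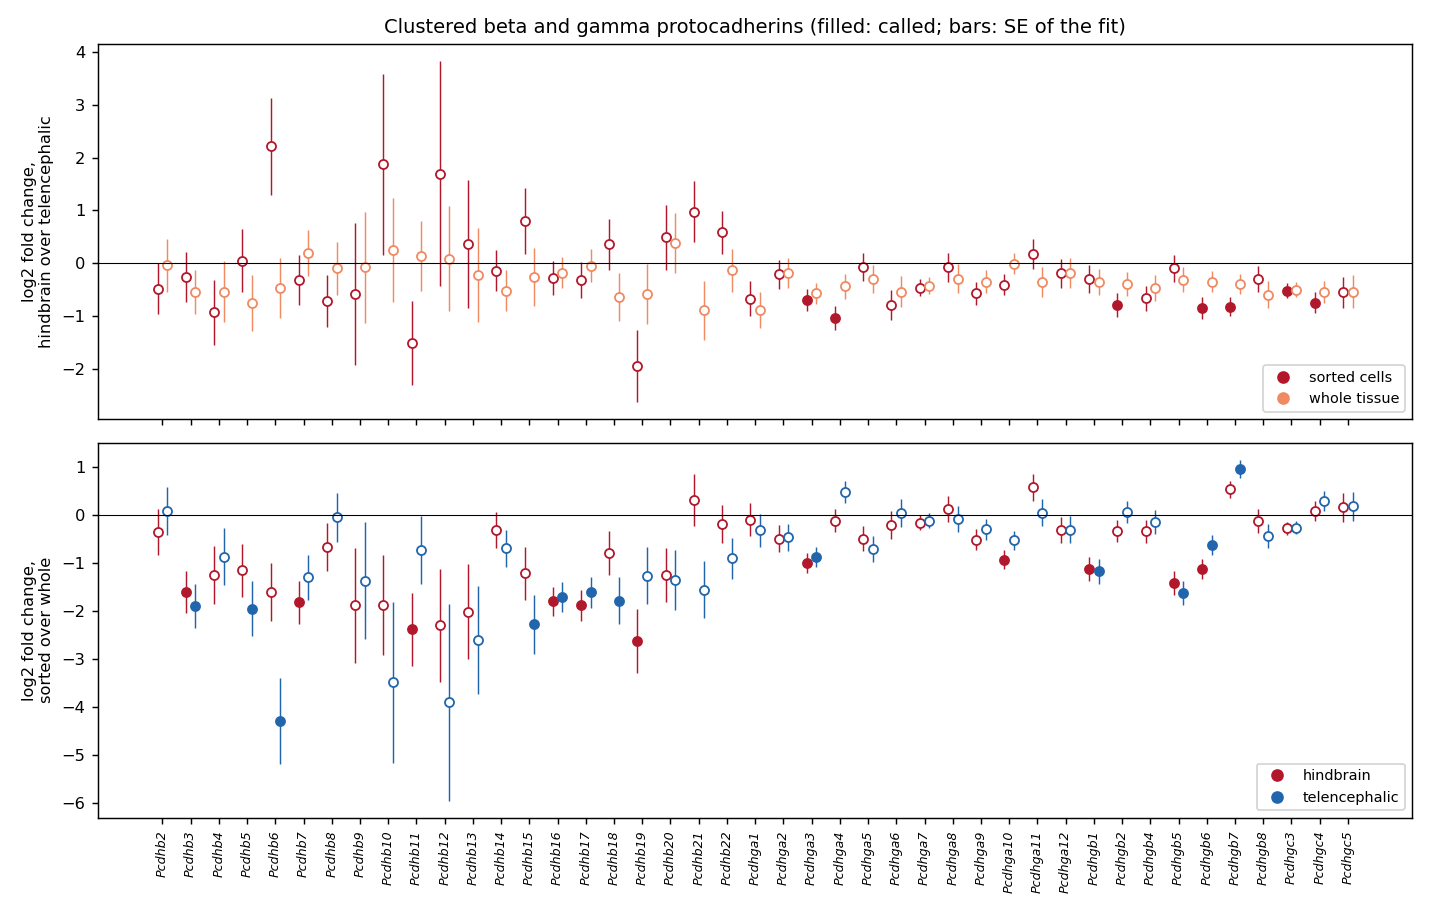
Log2 fold changes of 21 beta and 22 gamma protocadherins with the standard error of the fit (bars): hindbrain over telencephalic in sorted cells and in whole tissue (top) and sorted over whole in each region (bottom); filled points were called. In the top panel the gamma genes lie below 0 with 1 exception in sorted cells, and in the bottom panel most beta genes lie below 0.

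Calls between regions among the genes that cadherins work with are read against all genes tested. Of those, 15.2% were called in sorted cells and 5.79% in whole tissue. Of 13 tested catenins and junction partners, 6 had an unadjusted edgeR p under 0.05 in sorted cells and 2 in whole tissue. Of all genes tested 28.3% and 16.5% did. By adjusted p, 1 of the 13 was called in sorted cells and none in whole tissue, where DESeq2 called 1. The gene in sorted cells was Vcl, vinculin, which links catenins to actin, at 62.1 and 75.0 CPM in hindbrain sorted cells against 34.1 and 35.2 CPM in telencephalic sorted cells (0.99 ± 0.14, adjusted p = 0.000552, edgeR). Ctnnb1, beta-catenin, at 581 and 628 CPM in hindbrain sorted cells, against 713 and 663 CPM in telencephalic sorted cells, was not called. Neither edgeR nor DESeq2 called a cadherin-processing enzyme (4 tested, the sheddase Adam10 and the protease Furin the most abundant), a regulator of the protocadherin clusters (7 tested, Nipbl and Smc3 of the cohesin machinery the most abundant) or a signalling partner (9 tested, Nckap1 and Abi2 of the WAVE complex the most abundant) between regions. Unadjusted, 0, 2 and 1 of them had a p under 0.05 in sorted cells and 0 in whole tissue, against 28.3% and 16.5% of all genes tested. Of 6 transcription factors known to act on cadherin genes, 5 were higher in hindbrain sorted cells and 1 in hindbrain whole tissue. Zeb2, a repressor of E-cadherin, measured 74.9 and 77.7 CPM in hindbrain sorted cells, against 8.24 and 14.1 CPM in telencephalic sorted cells, and 86.5 and 101 CPM in hindbrain whole tissue, against 58.1 and 72.4 CPM in telencephalic whole tissue. Its region effect in sorted cells was 2.80 ± 0.20 (adjusted p = 4.67e-06, edgeR), and Twist1 (2.25), Snai1 (2.11) and Grhl2 (2.69), the last an activator of E-cadherin, were also called there, as was Zeb1 (0.54). Snai1 was at 2.76 without telencephalic sorted replicate 1. Grhl2 no longer passed without telencephalic sorted replicate 1 (adjusted p = 0.098) or 2 (0.0976) and when only the 4 sorted libraries were fitted (0.0541). Zeb1 was lost in that fit (0.0794) and without telencephalic whole replicate 1 (0.0672) or 2 (0.0679), hindbrain sorted replicate 1 (0.247) or telencephalic sorted replicate 1 (0.316). Twist1 was higher in hindbrain whole tissue too (1.62 ± 0.32, adjusted p = 0.0086, edgeR; 0.0701 to 0.101 without hindbrain whole replicate 2 or either telencephalic whole library).

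Other members of the cadherin superfamily divided in sorted cells. Of 13 tested, 3 were higher and 3 lower in the hindbrain, or 46.2% called against 15.2% of all genes tested. Dchs1 (1.61) and its binding partner Fat4 (1.27), large cadherins of planar polarity, and the desmosomal Dsg2 (1.08) were higher. Celsr1 (-0.73) and Celsr2 (-0.51), seven-pass cadherins of planar polarity, and the calsyntenin Clstn1 (-0.46) were lower, though Celsr2 and Clstn1 had adjusted p of 0.101 and 0.185 with library totals as the scale and 0.0698 and 0.168 without telencephalic sorted replicate 1, and Clstn1 0.0527 without hindbrain sorted replicate 1. Dsg2 was lost in sorted cells without telencephalic sorted replicate 2 (adjusted p = 0.0897). In whole tissue Dsg2 alone was called (1.18 ± 0.26, adjusted p = 0.0161, edgeR; 0.137 without hindbrain whole replicate 1 and 0.189 without telencephalic whole replicate 2). The transcription factor, Dchs1 and Fat4 differences were measured in the same sorted libraries in which mesenchymal, mural and macrophage markers were higher in the hindbrain, at summed levels given with the libraries, and their part was not tested.

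Similar patterns over the 8 libraries were looked up for the called members with the highest and the lowest hindbrain over telencephalic value in sorted cells, Cdh9 and Cdh7, and for those among called members with a mean of at least 10 CPM in a group, Cdh10 and Cdh26. The measure was Pearson r of log2(CPM + 1) among 9808 or 9809 genes. The nearest genes to Cdh10 were Enpep, Mvp and Adh1 (0.99 each) and for Cdh26 Ttc35, Gstt1 and Cntn4 (0.99 each). For Cdh9 they were Stil and Rasl11b (0.98) and Klf6 (0.96), and for Cdh7 Olfml1 (0.97), Spnb1 and Eef2k (0.96). The libraries share region, preparation and depth, and with 8 points such values describe these libraries only.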

How the data were processed

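Per the labels' protocols, RNA was isolated with the RNeasy Micro kit, pre-amplified (Ovation V2) and sequenced as paired-end TruSeq v2 libraries, which mark no strand, so reads of overlapping or antisense genes cannot be told apart. Bowtie2 2.0.5, TopHat2 2.0.4, HTSeq, CASAVA 1.8.2 and DESeq 1 are listed, with the build mm9, in the submitters' processing notes. Annotation and strand setting: not given in the sources used here. Each value the authors deposited is a raw count of reads for 1 gene symbol, and all 8 columns were matched to samples by name. Promoters come from another build, GRCm38.p6, and were matched by symbol (22 members had one). No read counts were placed on that build.

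Counts were fitted with edgeR 4.0.16 (filterByExpr with minimum count 10 and minimum total 15, TMM scaling, 4 group means over all 8 libraries, quasi-likelihood F tests, Benjamini-Hochberg over 15698 genes). CPM are counts over the TMM-scaled library size. Counting intervals and floors (3 counts) cover counting error only, since the labels name no molecular identifiers. The test was also run on simulated data, drawn from its own fitted model with independent libraries. That run cannot show how well the model holds for these libraries. Alternatives were DESeq2 1.42.0, other scalings, other filters, 4 libraries only, the brain as a block and leaving out each library.

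The design text pairs the regions by brain, and deviations from the group means correlated by 0.296 in whole tissue and 0.153 in sorted cells. With 2 replicates this is 1 value a preparation. Beside the calls given with their results, the block also called Pcdhgb4 in sorted cells (adjusted p = 0.0451 against 0.0858). It ended no call.

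The members, gene lists, motifs and tests were chosen with earlier results of these data known, and the search for shared promoter letters was added after the promoters were seen. The rule named up to 35 called members by adjusted p, the 6 most abundant uncalled ones and up to 4 called genes of each other list; further names were chosen after their values were seen. Of 129 list genes 127 were found, 5 under an older symbol.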

Additional observations from a re-analysis of the deposited data

Results flagged for a closer look

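The region effect, hindbrain over telencephalic, differed between sorted cells and whole tissue by an interaction test in edgeR's quasi-likelihood fit for 6 of the genes named in the text. Given as the sorted effect minus the whole-tissue effect on the log2 scale, the values were 2.30 for Cdh10 (adjusted p = 0.0074), 1.834 for Pcdh18 (0.0328) and 1.551 for Cdh11 (0.0377). Among genes that are not cadherins by the naming rule they were 2.274 for the E-cadherin repressor Zeb2 (adjusted p = 0.00216), 1.544 for Dchs1 (0.00439) and 1.142 for vinculin, Vcl (0.0137). In all 6 the sorted effect was the more positive, with hindbrain sorted libraries above telencephalic sorted ones. The calls of Zeb2 and Dchs1 held in each of 15 alternatives, with adjusted p of up to 0.0268 and 0.0476. That of Vcl held in 10 of 15 and was lost without hindbrain whole replicate 2 (0.0608), telencephalic whole replicate 1 (0.121) or 2 (0.0571), or telencephalic sorted replicate 1 (0.0864) or 2 (0.0605). No group of 4 or more libraries exists, so single libraries were not tested for standing apart.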

How the results depend on the processing

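Over 99 single-gene results and 1522 alternative values, 1311 kept direction and call, 197 lost the call, 10 gained it and 4 changed sign. The sign changes were in values near 0 that were never called: Pcdh7 in whole tissue, 0.061 with library totals and -0.083 to 0.040 when 1 library was left out, the highest without hindbrain whole replicate 2, and Cdh1 in sorted cells, -0.34 to 1.24 when 1 library was left out, with -0.26 without hindbrain sorted replicate 1 and -0.34 without telencephalic sorted replicate 2. The count of members called between regions in whole tissue was 16 when only the 4 whole-tissue libraries were fitted. Over all genes that fit called 1587 against 909. The count of members for the difference of the region effects was 1 with DESeq2, which called 327 of all genes against 211. Leaving out 1 library gave 7 to 18 members in sorted cells, 2 to 12 in whole tissue, 0 to 4 for the difference, 15 to 26 for sorted against whole in the hindbrain and 11 to 28 in telencephalic samples. A group left with 1 library is assumed to vary like the others. With the brain as a replicate block, 21 members were called in sorted cells, 11 in whole tissue and 4 for the difference, and no call was lost. Over all genes the block called 2943, 1195 and 337, against 2383, 909 and 211 without it. With library totals as the scale, the median of all genes moved by 0.20 in sorted cells, 0.08 in whole tissue, 0.12 for the difference, and by -0.20 and -0.32 for sorted against whole in hindbrain and telencephalic samples. The share of called genes that were higher became 83.5% and 70.7% between regions in sorted cells and whole tissue, against 59.7% and 57.6%, and 20.1% and 10.5% for sorted against whole in the hindbrain and telencephalic samples, against 46.3% and 44.1%. Members split 8 higher and 5 lower in sorted cells and 5 and 1 in whole tissue under that scale. The median of the beta genes between regions in sorted cells was 0.08 there, against -0.14. The causes were not tested. Depth limits the low genes, since 3 counts are 0.109 to 0.314 CPM depending on the library.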
